A study of Mus musculus with 6 samples.

Results

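The DNA replication genes are 44 mouse genes, chosen by name, whose products mark and open replication origins, unwind and copy DNA, join the new strands, supply nucleotides and repack the copied DNA. All 44 had a probe among the 23462 genes named on the array, with 64 probes in all. They were measured in samples labelled as isolated acinar cells, the enzyme-secreting cells of the exocrine pancreas, from mice on a C57BL/6 background. The acinar markers did not bear out this cell label in KCS replicates 1 and 2, and were lower in KCS replicate 3 than in KC. In KCS samples (n = 3) the mice carried Ptf1aCre, an oncogenic allele silent until Cre acts, and Setdb1flox/flox. In KC samples (n = 3) they carried Ptf1aCre and the same oncogenic allele, without Setdb1flox/flox. Setdb1 encodes a methyltransferase of histone H3 lysine 9. Ptf1a is a gene of the pancreatic epithelial lineage, so Cre under its control is not known to act in fibroblasts, leukocytes or endothelial cells. The labels give no age, and do not say whether samples were separate animals, so p-values measure the spread between these samples, which may be technical.

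A cell copies its DNA once in each division. In G1 phase the origin recognition complex, Cdc6 and Cdt1 load rings of the MCM proteins onto DNA, and geminin (Gmnn) blocks reloading later in the cycle. At the start of S phase Cdc45 and the GINS complex join each ring to form the active helicase, DNA polymerases epsilon and delta extend primers laid down by polymerase alpha-primase, and the sliding clamp PCNA tethers them. Many of these genes are transcribed through E2F factors when a cell leaves the resting state, and most acinar cells of an adult pancreas rest.

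Each value below is a scaled log2 signal, the log2 of an array's processed intensity minus that array's 75th percentile. Levels of different probes are not comparable, so only the same probe is compared between groups. A fold change is KCS over KC, its error is the standard error (SE) of the limma fit with 3 arrays in each group, and a gene is called where the adjusted p is under 0.05. The 75th percentile was 347 to 423 scanner units on KCS arrays and 61.2 to 68.6 on KC arrays, and 35366 to 35920 probes on KCS arrays were well above background, against 26550 to 27237 of 56605 on KC arrays. The Setdb1 probe read -0.28, -0.44 and -0.55 in KCS, against -0.91, -1.05 and -0.32 in KC (log2 fold change 0.33 ± 0.24, adjusted p = 0.270), so it showed no loss, and whether it lies in the deleted stretch is not known. It was called higher in KCS when arrays were scaled to their medians (0.69, adjusted p = 0.0443) or to spike-in controls (3.23, adjusted p = 1.59e-05), so this reading depends on the scaling.

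The labelled cell type was checked against its markers, since these samples are bulk RNA, in which fewer cells of a type and less RNA per cell cannot be told apart. All 12 acinar markers were called lower in KCS, with a summed linear signal of 3.69, 17.3 and 1932 times the array's 75th percentile in KCS replicates 1, 2 and 3, against 27324 to 32288 times it in KC. The acinar markers therefore went against the label in KCS replicates 1 and 2. KCS replicate 3 kept acinar signal, though less than KC, and stood above replicate 2 by a median of 7.23 log2 units over the 12 markers. Fibroblast markers (11 of 11 called higher) summed to 1168 to 1467 in KCS and 207 to 279 in KC, and macrophage markers (10 of 11 higher) to 375 to 490 in KCS and 60.5 to 86.3 in KC. Of the other marker lists, 6 of 8 endothelial genes were called higher (sums of 54.0 to 91.3 in KCS and 39.9 to 46.0 in KC), and 4 of 8 ductal genes were called higher and 1 lower (273 to 354 in KCS and 55.4 to 75.5 in KC). For T, B and NK cells, 2 of 9 tested genes were called higher and 3 lower, with sums of 3.63 to 9.73 in KCS and 12 to 21.4 in KC. Of all these markers, 3 lymphocyte genes and 1 macrophage gene rose well above background on 0 of 3 KC arrays, and every marker did so on at least 1 KCS array. The part of these cell types in the replication gene values was not tested.

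All 44 replication genes passed the filter for tested rows, which asked for 3 or more of the 6 arrays with a signal well above background. Of them 27 were called higher in KCS (61.4%), 4 were called lower (9.09%) and 13 were not called. Of all 27102 rows tested, 60.3% were called, 25.9% higher and 34.4% lower. Among the 16263 of them that carry a symbol, 61.6% were called, 32.4% higher and 29.1% lower. The median log2 fold change of the 44 genes was 0.99, against -0.19 over all rows and 0.07 over rows with a symbol. The groups did not overlap for 34 of the 44 genes (77.3%), against 68.2% of all rows and 70.9% of rows with a symbol. On the first slide, with replicate 1 of both groups, the median of the 44 genes was 0.87, and on the second, with replicates 2 and 3, it was 1.16. The filter let in Orc1, Cdc45 and Pola2 through KCS arrays alone, and Pole2 through 3 KCS arrays and 1 KC array. The lowest signal well above background was -5.41 to -5.23 on KCS arrays and -3.09 to -2.92 on KC arrays. A probe could thus pass in KCS at a signal that did not pass in KC. Pola2 was not called, and the calls of the rest (Orc1 and Pole2 higher, Cdc45 lower) add no support to the counts. The other 40 genes were well above background on all 6 arrays, and of these 25 were called higher and 3 lower. A fit of only the 19121 rows that met this condition called 24.7% of them higher and 42.7% lower. That fit called 26 of the 40 genes higher and 3 lower. Under scaling to spike-in controls, which put the median of all rows at 2.70, all 44 genes were called higher, as were 87.2% of all rows. Each lower call below is thus a direction relative to the other genes on the array.

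**Figure D1:**
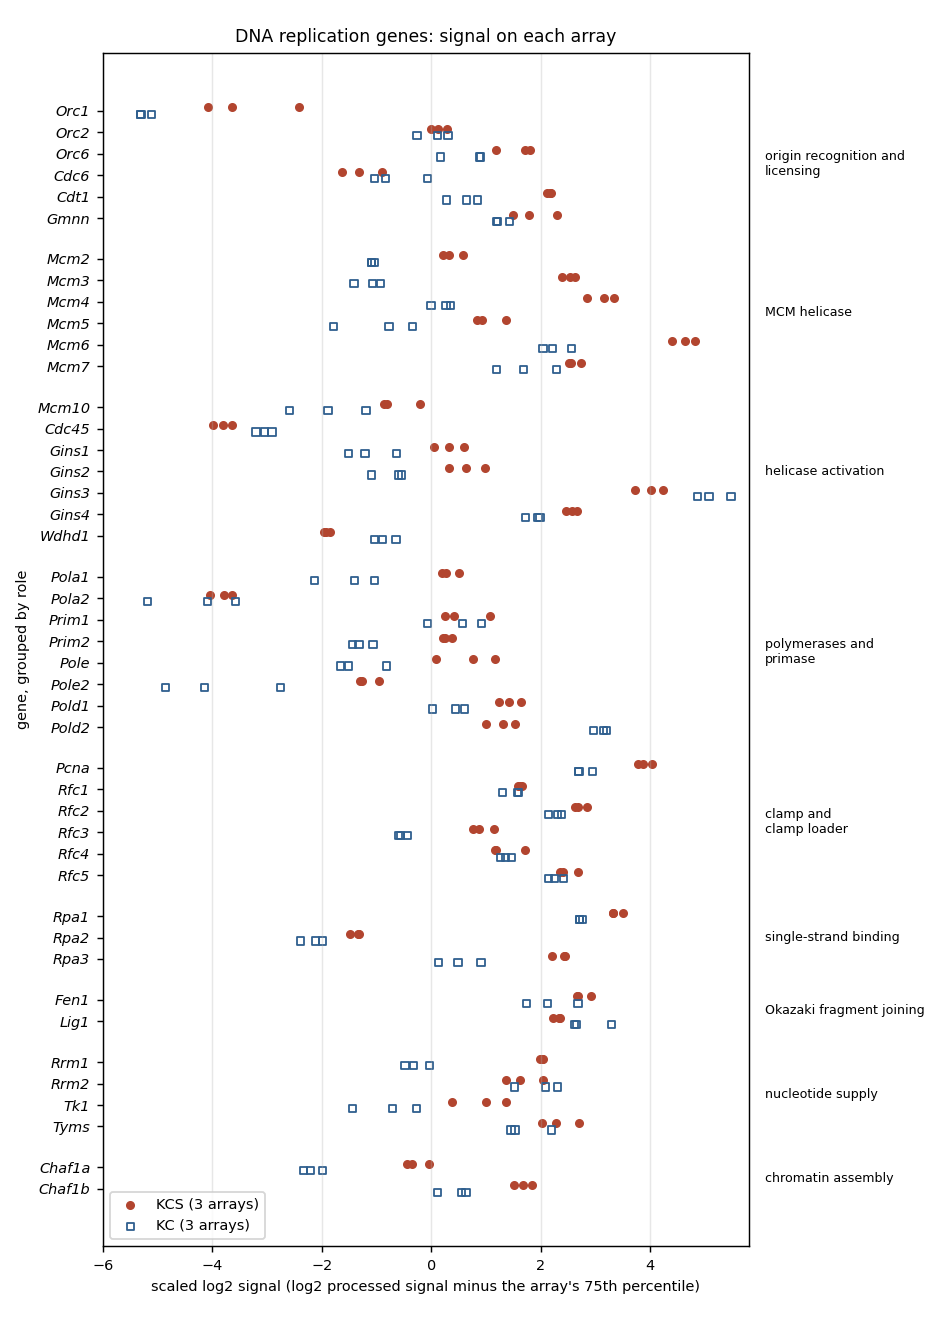
Scaled log2 signal (x axis, log2 of the processed signal minus the array's 75th percentile) of the 44 genes, grouped by role down the page. Filled circles are the 3 KCS arrays and open squares the 3 KC arrays; the circles lie right of all squares for the 6 MCM helicase genes and left of them for Pold2, Gins3, Wdhd1 and Cdc45 (which all turn positive with spike-in scaling), and positions of different genes cannot be compared.

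The MCM helicase genes, which encode the ring that unwinds DNA ahead of the fork, were all called higher in KCS (6 of 6, median log2 fold change 2.18). Of rows with a symbol, 32.4% were called higher and 29.1% lower. Mcm3 showed the greatest change of the 44 genes. Its signals were 2.38, 2.62 and 2.54 in KCS, against -0.93, -1.08 and -1.41 in KC. The arrays of a group lay within 0.5 log2 units of each other and the groups were far apart, a 12.6-fold difference (log2 fold change 3.66 ± 0.20, adjusted p = 8.75e-05). The other Mcm3 probes gave 2.69 and 2.94. Mcm4 rose by 2.91 ± 0.21 (adjusted p = 1.49e-04), Mcm6 by 2.34 ± 0.22 (adjusted p = 2.95e-04) and Mcm5 by 2.01 ± 0.39 (adjusted p = 0.00477). Mcm2 read 0.32, 0.22 and 0.59 in KCS, against -1.04, -1.09 and -1.10 in KC, with no overlap (1.45 ± 0.18, adjusted p = 7.29e-04). Mcm7 gave the smallest change of the ring's genes. Its signals were 2.51, 2.55 and 2.74 in KCS, against 2.29, 1.19 and 1.68 in KC, so the KC array of the first slide came close to the KCS arrays (0.88 ± 0.30, adjusted p = 0.0408). The Mcm7 difference was 0.22 on the first slide and 1.21 on the second. Its call was lost when any of 5 single arrays was left out, all but KC replicate 1 (adjusted p = 0.0756 to 0.101), and with quantile normalization (adjusted p = 0.0554).

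Promoter sequences from RefSeq (GRCm38.p6) were matched for 36 of the 44 genes, 42 promoters in all, each spanning 250 bases before the start site to 50 after it. They are shown for 3 genes called higher (Mcm3, Mcm6, Rfc3) and for Gins3 and Pold2, called lower, because E2F words stand in the first 3 and in Gins3 but not in Pold2. Capitals mark matches to TTTGGCGC, TTTCCCGC, TTTCGCGC or TTTGCCGC, the words searched as the E2F motif on both strands, with overlapping matches allowed. The intervals are chr1:20820263-20820562 (minus strand) for Mcm3, chr1:128359656-128359955 (minus) for Mcm6, chr5:151651159-151651458 (minus) for Rfc3, chr8:95633309-95633608 (plus) for Gins3 and chr11:5878207-5878506 (minus) for Pold2, which has another start site in the table.
Mcm3: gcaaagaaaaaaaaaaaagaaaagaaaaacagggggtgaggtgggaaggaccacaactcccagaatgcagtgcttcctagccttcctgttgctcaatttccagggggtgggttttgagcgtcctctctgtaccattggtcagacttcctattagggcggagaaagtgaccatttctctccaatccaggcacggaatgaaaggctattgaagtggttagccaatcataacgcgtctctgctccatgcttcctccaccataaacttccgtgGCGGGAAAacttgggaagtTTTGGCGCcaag
Mcm6: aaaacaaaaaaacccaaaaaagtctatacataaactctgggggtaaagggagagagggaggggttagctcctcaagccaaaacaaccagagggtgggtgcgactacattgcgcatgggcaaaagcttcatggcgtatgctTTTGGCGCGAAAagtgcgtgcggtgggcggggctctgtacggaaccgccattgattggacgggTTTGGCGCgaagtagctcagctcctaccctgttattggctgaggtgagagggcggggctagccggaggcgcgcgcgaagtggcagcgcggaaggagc
Rfc3: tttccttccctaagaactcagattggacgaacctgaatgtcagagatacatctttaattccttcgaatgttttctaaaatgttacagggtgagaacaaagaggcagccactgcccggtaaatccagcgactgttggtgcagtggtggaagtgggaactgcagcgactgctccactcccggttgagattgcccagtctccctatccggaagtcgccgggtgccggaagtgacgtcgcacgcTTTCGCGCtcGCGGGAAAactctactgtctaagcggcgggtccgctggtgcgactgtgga
Gins3: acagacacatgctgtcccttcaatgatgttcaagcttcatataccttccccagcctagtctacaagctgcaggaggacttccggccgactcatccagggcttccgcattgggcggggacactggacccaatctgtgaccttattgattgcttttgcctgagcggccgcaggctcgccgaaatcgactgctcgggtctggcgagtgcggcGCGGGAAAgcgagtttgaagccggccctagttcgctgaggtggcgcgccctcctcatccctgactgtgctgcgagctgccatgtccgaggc
Pold2: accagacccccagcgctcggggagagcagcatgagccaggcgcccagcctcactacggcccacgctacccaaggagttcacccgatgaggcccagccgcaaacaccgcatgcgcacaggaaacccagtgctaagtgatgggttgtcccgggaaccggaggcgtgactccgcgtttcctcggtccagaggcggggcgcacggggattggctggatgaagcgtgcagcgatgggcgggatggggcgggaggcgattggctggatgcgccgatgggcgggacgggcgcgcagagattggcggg

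The Mcm6 promoter holds 3 matches, of which a pair overlaps in opposite orientation, the Mcm3 and Rfc3 promoters hold 2 each, Gins3 holds 1 and neither Pold2 promoter holds any. A match was found in 13 of the 42 promoters (31.0%), against 744 of all 32851 promoters in the table (2.26%). By call, it was in 10 of 22 promoters of genes called higher (45.5%; 8 of 20 without Orc1 and Pole2), 1 of 5 of genes called lower (20%) and 2 of 15 of genes not called (13.3%). The genes called higher were Cdt1, Mcm3, Mcm5, Mcm6, Mcm7, Orc1, Pola1, Pold1, Pole2 and Rfc3, the gene called lower was Gins3, and Cdc6 and Lig1 were not called. The 19 matches started between 165 bases before the start site and 39 bases after it, with a median of -27. The word CCAAT, searched on both strands, was in 59.5% of the 42 promoters and 37.4% of all, and by call in 77.3% of promoters of genes called higher, 60% of those called lower and 33.3% of those not called. TTTGAA, the cell cycle homology region word, was in 11.9% of the 42 and 17.9% of all, with 1 of 22 promoters of genes called higher, 3 of 5 called lower and 1 of 15 not called. Those 3 were of Cdc45, Gins3 and the other Pold2 start site. The genes called lower include Cdc45 and Wdhd1, whose probes conflict, and the CCAAT and TTTGAA shares keep Orc1 and Pole2. No promoter was matched for Mcm4, Pole, Prim2, Gins1, Gins2 and Gins4, called higher, or for Gmnn and Rfc2, not called. The median GC content was 58.8% in the 42 promoters and 52.7% in all, and what it contributes to these shares was not tested. A match describes the letters of these windows and is not a measured binding site.

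Among the genes of origin recognition and licensing, 3 of 6 were called higher (50%) and none lower (median 0.75), against 32.4% and 29.1% of rows with a symbol. Cdt1, the MCM loader, read 2.17, 2.11 and 2.19 in KCS, against 0.85, 0.27 and 0.64 in KC. The KCS arrays lay closer together than the KC arrays, and all were above them (1.57 ± 0.20, adjusted p = 9.29e-04). Gmnn, which encodes the inhibitor of Cdt1, read 1.49, 1.78 and 2.29 in KCS, against 1.19, 1.21 and 1.43 in KC, without overlap but short of the threshold (0.58 ± 0.25, adjusted p = 0.0827). Gmnn passed it without KCS replicate 1 (adjusted p = 0.0443) and when arrays were scaled to their medians (0.93, adjusted p = 0.0127). Orc1, the subunit of the origin recognition complex that changes most through the cycle, read -4.09, -3.64 and -2.42 in KCS, against -5.32, -5.30 and -5.11 in KC (adjusted p = 0.00905). It was well above background on all KCS arrays and 0 of 3 KC arrays, so it passed the filter through KCS alone, and the bound gave no fold above 1. Orc6 rose by 0.92 ± 0.29 (adjusted p = 0.0307), a call lost without KCS replicate 2, KCS replicate 3 or KC replicate 1 (adjusted p = 0.0701 to 0.0950), and Orc2 stood at 0.08, with -0.65 on its other probe (adjusted p = 0.0555).

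Cdc6, the other MCM loader, was not called. Its brighter probe read -1.32, -1.64 and -0.91 in KCS, against -0.07, -0.84 and -1.04 in KC, with overlapping groups (-0.64 ± 0.32, adjusted p = 0.131). The dimmer probe, which passed the filter through KCS alone, was at least 1.26-fold higher in KCS.

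Of the genes that turn the loaded ring into the active helicase, 4 of 7 were called higher (57.1%) and 3 lower (42.9%, median 0.68). The shares of rows with a symbol were 32.4% and 29.1%. Of the lower calls, those of Wdhd1 and Cdc45 came from genes with conflicting probes. Gins3 had only 1 probe on the array, so its lower call could not be checked on another. Within the GINS complex, a ring partner made of 4 subunits, the subunits moved in opposite directions relative to the other genes, though not with spike-in scaling. Gins1 read 0.05, 0.31 and 0.59 in KCS, against -1.52, -1.21 and -0.64 in KC (1.44 ± 0.28, adjusted p = 0.00485). Gins3 read 4.22, 3.72 and 4.01 in KCS, against 5.47, 5.07 and 4.87 in KC. All KCS arrays were below all KC arrays, a fold change of 0.450 (log2 -1.15 ± 0.24, adjusted p = 0.00607), which with spike-in scaling became 1.74, below the median of all rows there. Gins2 rose by 1.40 and Gins4 by 0.68. The Gins4 call was lost on the second slide alone (adjusted p = 0.0676).

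Mcm10, which helps the helicase start, rose by 1.26 ± 0.39 (adjusted p = 0.0288), with 0.33 on the first slide and 1.73 on the second. Its call was lost without KCS replicate 2, KCS replicate 3, KC replicate 2 or KC replicate 3 (adjusted p = 0.0590 to 0.0798). Wdhd1, which links the helicase to polymerase alpha, was called lower on its brightest probe (-1.05 ± 0.18, adjusted p = 0.00275). Another probe gave 0.34, and the last, above background in KCS alone, was at least 1.78-fold higher in KCS. The mean of the probes gave 0.57 (adjusted p = 0.0403) and spike-in scaling 1.84, so no direction is given for Wdhd1. Cdc45, the helicase cofactor, was called lower on a probe that on 0 of 3 KC arrays was well above background (-0.76 ± 0.18, adjusted p = 0.0115). Its other probe, equally dim in KC, was higher in KCS by at least 1.05-fold (adjusted p = 0.0973), spike-in scaling gave 2.13, and the call was lost without KCS replicate 2 (adjusted p = 0.0504), so no direction is given for Cdc45.

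**Figure D2:**
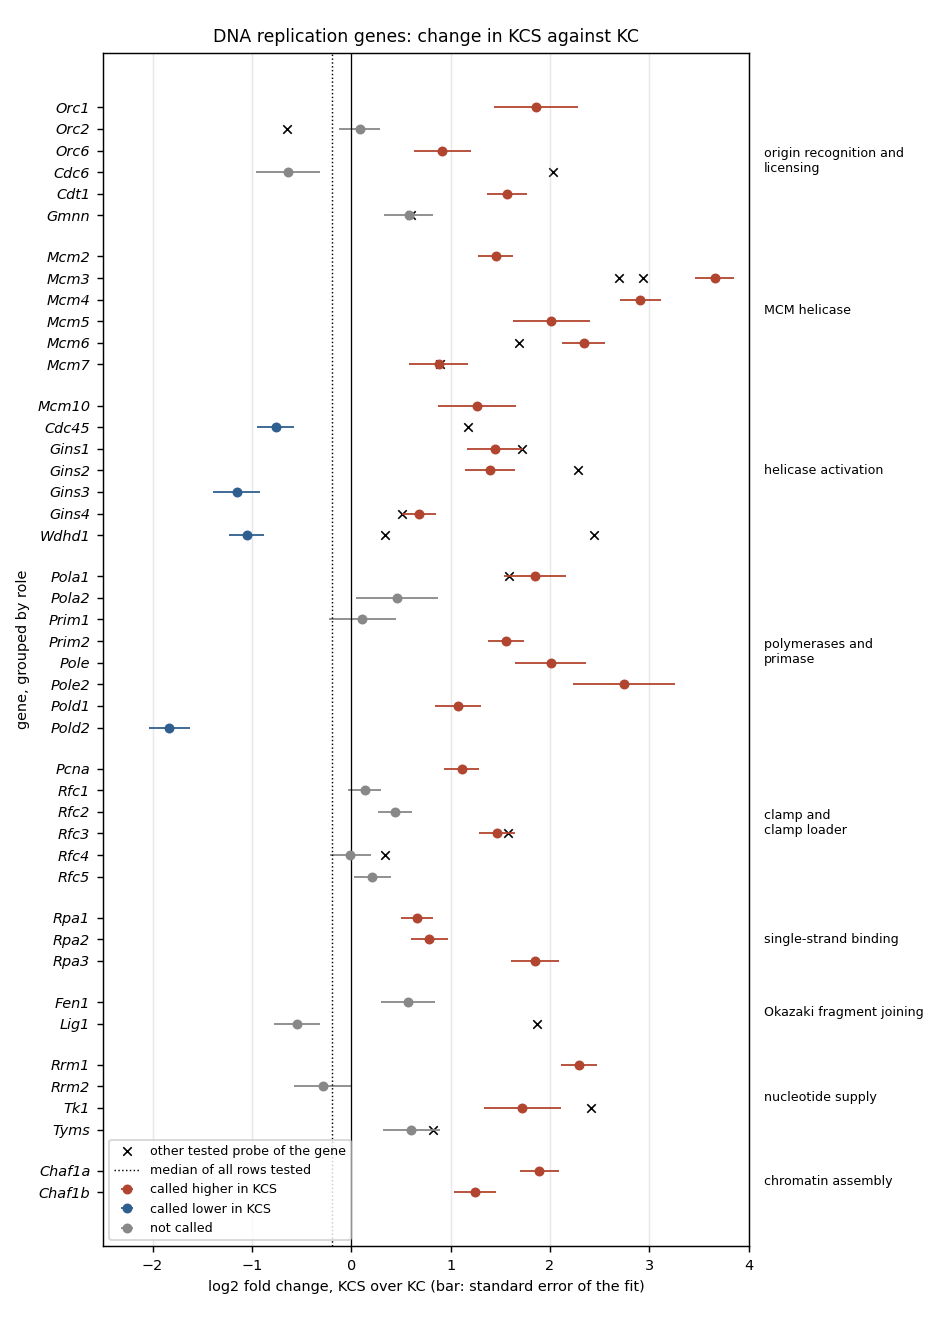
Log2 fold change of KCS over KC (x axis) for each gene, by role; circles are the probe that stands for the gene, with bars of 1 standard error, and crosses are its other tested probes. The dotted line is the median of all rows, -0.19; Mcm3 lies furthest right at 3.66 and Pold2 furthest left at -1.83 (1.06 with spike-in scaling), and crosses of Cdc6, Lig1, Cdc45, Wdhd1, Orc2 and Rfc4 lie on the other side of 0 from their circles, those of the first 3 and the rightmost of Wdhd1 from probes not above background in KC.

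Of the genes for the replicative polymerases and primase, 5 of 8 were called higher (62.5%) and 1 lower (12.5%, median 1.31). The shares of rows with a symbol were 32.4% and 29.1%. Pole2, the second subunit of polymerase epsilon, which makes the leading strand, read -1.30, -1.27 and -0.96 in KCS, against -4.86, -2.76 and -4.15 in KC. The groups were far apart (2.75 ± 0.52, adjusted p = 0.00417), but only 1 of 3 KC arrays was well above background. Pole, the catalytic subunit of the same enzyme, rose by 2.01, Pola1, that of polymerase alpha, by 1.85, Prim2 of primase by 1.55 and Pold1, the catalytic subunit of polymerase delta, by 1.07. Pold2, the accessory subunit bound to Pold1, went the other way on its only probe, so its direction could not be checked on another. It read 1.31, 0.99 and 1.52 in KCS, against 3.15, 2.96 and 3.20 in KC. KCS had 0.281 times the KC signal (log2 -1.83 ± 0.20, adjusted p = 5.37e-04), with -1.84 on the first slide and -1.83 on the second, and spike-in scaling gave 1.06. Prim1, the catalytic subunit of primase, stood at 0.11, and Pola2, the second subunit of polymerase alpha, at 0.46, with 0 of 3 KC arrays well above background.

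Of the genes for the clamp and its loader, 2 of 6 were called higher (33.3%) and none lower (median 0.33). That higher share is near the 32.4% of rows with a symbol. Pcna, the sliding clamp, read 3.77, 3.87 and 4.02 in KCS, against 2.68, 2.95 and 2.70 in KC. All KCS arrays were above all KC arrays, a 2.16-fold difference (log2 fold change 1.11 ± 0.18, adjusted p = 0.00212). Of the 5 subunits of replication factor C, which opens the clamp, only Rfc3 was called. It read 0.77, 0.87 and 1.15 in KCS, against -0.56, -0.60 and -0.44 in KC (1.46 ± 0.18, adjusted p = 7.90e-04). Rfc4 read 1.19, 1.17 and 1.70 in KCS, against 1.36, 1.46 and 1.26 in KC, groups that overlapped (-0.01 ± 0.21, adjusted p = 0.973), and its other probe gave 0.34. Rfc1 stood at 0.13, Rfc5 at 0.21 and Rfc2 at 0.44 (adjusted p = 0.0619). With median centring, which set the median of all rows at 0.16, Rfc1, Rfc2 and Rfc5 were also called higher. Rfc2 was called higher as well with normexp (adjusted p = 0.0345), without the filter (0.0476), over rows above background on all 6 arrays (0.0407) and with an intensity trend (0.0296).

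All 3 genes of replication protein A, which coats single-stranded DNA, were called higher (median 0.79), against 32.4% of rows with a symbol. Rpa3 read 2.20, 2.42 and 2.45 in KCS, against 0.13, 0.91 and 0.49 in KC (1.85 ± 0.24, adjusted p = 9.67e-04). Rpa1, which holds most of the DNA contacts, read 3.51, 3.32 and 3.32 in KCS, against 2.71, 2.70 and 2.77 in KC. The arrays of each group lay close together, and the difference was smaller than for Rpa3 (0.66 ± 0.16, adjusted p = 0.0123), with the call lost on the second slide alone (adjusted p = 0.0741). Rpa2 rose by 0.79.

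Neither gene that processes Okazaki fragments, the short pieces of the lagging strand, was called. Fen1, the flap nuclease, read 2.66, 2.67 and 2.92 in KCS, against 1.74, 2.68 and 2.12 in KC, overlapping at a single KC array (0.57 ± 0.27, adjusted p = 0.111). Fen1 was called higher without that array, KC replicate 2 (0.82, adjusted p = 0.0256), and with median centring (0.93, adjusted p = 0.0193). Lig1, the ligase, read 2.22, 2.34 and 2.35 in KCS, against 3.29, 2.65 and 2.62 in KC. Its groups did not overlap, yet the test did not pass (-0.55 ± 0.23, adjusted p = 0.0815), and a dimmer probe, which passed the filter through KCS alone, was at least 1.74-fold higher. Lig1 was called lower with normexp (adjusted p = 0.0499) and with an intensity trend (adjusted p = 0.0499), while the mean of its probes gave 0.66.

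Of the genes for nucleotide supply, 2 of 4 were called higher (50%) and none lower (median 1.16), against 32.4% and 29.1% of rows with a symbol. Rrm1, the large subunit of ribonucleotide reductase, which makes deoxynucleotides, read 2.04, 1.98 and 2.02 in KCS, against -0.04, -0.33 and -0.48 in KC. The KCS arrays were nearly equal and lay 4.90-fold above KC (log2 fold change 2.29 ± 0.18, adjusted p = 1.96e-04). Rrm2, the small subunit of the same enzyme, whose protein is known to be degraded outside S phase, read 1.37, 1.62 and 2.05 in KCS, against 2.31, 1.51 and 2.08 in KC. Its groups overlapped (-0.29 ± 0.29, adjusted p = 0.412), with -0.94 on the first slide and 0.03 on the second. Tk1, the salvage enzyme thymidine kinase, read 0.37, 1.0 and 1.37 in KCS, against -0.71, -0.26 and -1.45 in KC (1.72 ± 0.39, adjusted p = 0.00870). Its other probe gave 2.41. Both groups were spread, but all KCS arrays were above all KC arrays. Tyms, thymidylate synthase, stood at 0.60 ± 0.29 (adjusted p = 0.113), and its other probe, at 0.82, was called higher, as was the first without KC replicate 1 (adjusted p = 0.0397). Tyms was also called higher with median centring (0.96, adjusted p = 0.0306) and on the second slide alone (1.0, adjusted p = 0.0293).

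Both large subunits of chromatin assembly factor 1, which puts histones onto new DNA, were called higher, against 32.4% of rows with a symbol. Chaf1a read -0.45, -0.35 and -0.04 in KCS, against -2.20, -1.98 and -2.33 in KC (1.89 ± 0.20, adjusted p = 4.35e-04). Chaf1b read 1.51, 1.68 and 1.85 in KCS, against 0.63, 0.11 and 0.56 in KC (1.25 ± 0.21, adjusted p = 0.00290). The groups did not overlap for either gene, and the KCS arrays spread less than 0.5 log2 units in both.

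Partners of one complex could also be set against each other on the same array, where a scaling by 1 constant per array cancels. Quantile normalization and normexp do not cancel, and the differences were not taken with them. The 5 pairs were chosen after their values were seen, so no test is given, and a difference between probes has no meaning as a level, only its change between groups. Pold1 minus Pold2 was 0.11, 0.24 and 0.12 in KCS, against -2.54, -2.94 and -2.76 in KC, a shift of 2.90 log2 units. Rrm1 minus Rrm2 was 0.66, 0.36 and -0.03 in KCS, against -2.35, -1.84 and -2.56 in KC, a shift of 2.58. Mcm3 minus Mcm7 shifted by 2.78, Gins1 minus Gins3 by 2.59 and Rfc3 minus Rfc4 by 1.47. Every KCS array lay above every KC array in all 5 pairs, a separation that the choice of pairs may have fixed.

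**Figure D3:**
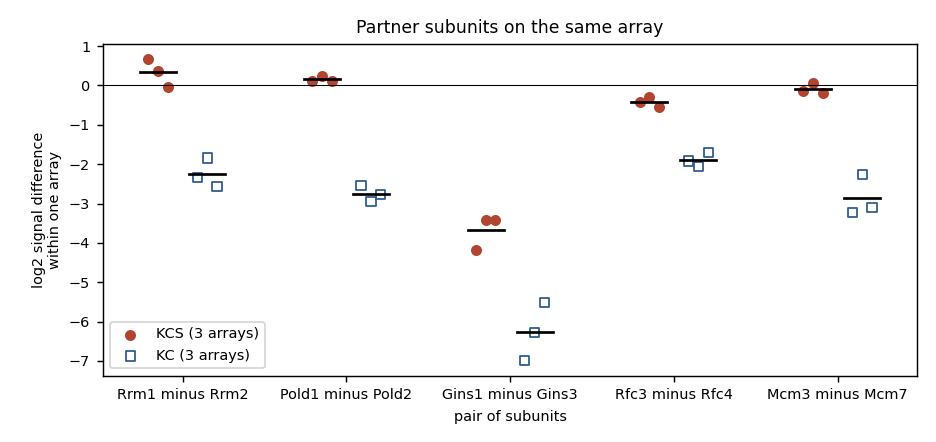
Difference in log2 signal between a pair of genes of one complex on the same array (y axis), for 5 pairs (x axis); filled circles are the 3 KCS arrays, open squares the 3 KC arrays, and lines the group means. Every pair was higher on the KCS arrays, by 1.47 (Rfc3 minus Rfc4) to 2.90 log2 units (Pold1 minus Pold2).

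The arrays within a group did not rank evenly. KCS replicate 3 was the highest of the 3 KCS arrays for 33 of the 44 genes, against 32.9% of all rows, and KCS replicate 1 was the lowest for 27, against 32.6% of all rows. Against KCS replicate 2, which shares its slide, KCS replicate 3 was higher for 37 genes, by a median of 0.26. KC replicate 1 was the highest KC array for 22 genes. KCS replicate 3 was also the highest KCS array for 15 of 16 mitotic markers and for 12 of 12 acinar markers, and the lowest for 8 of 8 endothelial markers, values whose part in the replication genes was not tested. Set against the mean of the KC arrays, the median of the 44 genes was 0.91 on KCS replicate 1, 0.96 on replicate 2 and 1.20 on replicate 3. On these arrays 29, 31 and 35 genes lay above all KC arrays and 8, 7 and 5 below them. The shares of all rows were not taken for single arrays, and 68.2% of all rows did not overlap between groups. These counts, which include Orc1, Cdc45, Pola2 and Pole2, are therefore not read as a result about the genes. Without KCS replicate 3, 24 genes were called higher and 4 lower, with a median of 0.89.

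**Figure D4:**
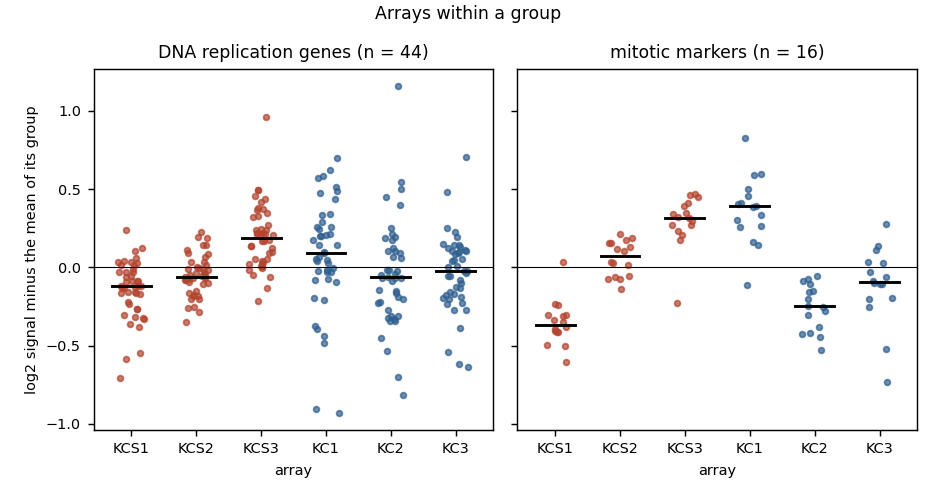
Log2 signal of each gene minus the mean of its group (y axis) on each array (x axis), for the 44 DNA replication genes and the 16 mitotic markers; points are genes and lines are medians. KCS replicate 3 lies highest in KCS in both panels, and KC replicate 1 lies highest in KC, most clearly for the mitotic markers.

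Other genes of the pathway were listed by name. Of 38 further replication genes, 17 were called higher (44.7%) and 4 lower (10.5%, median 0.58), against 25.9% and 34.4% of all rows. Among rows with a symbol, 32.4% were called higher and 29.1% lower. The higher calls of Ticrr, Dscc1, Atad5 and Dna2 came from probes well above background on 0 of 3 KC arrays. Those calls add no support to the count. Mtbp was called higher (1.48), but its other probe was called lower (-3.65, adjusted p = 3.95e-04), so no direction is given for Mtbp. Without the calls of these genes, the higher share of the list lies nearer that of rows with a symbol. Donson, a partner of the helicase at the fork, rose by 2.83 ± 0.17 (adjusted p = 1.04e-04), and its other probe, dim in KC, was at least 1.88-fold higher. Dck, a kinase of the nucleotide salvage pathway, rose by 2.31 ± 0.19 (adjusted p = 2.06e-04), and Dna2, a nuclease that trims flaps, was at least 3.76-fold higher, as a bound, since 0 of 3 KC arrays were well above background. Recql4, a helicase of origin firing, fell by 1.0 ± 0.23 (adjusted p = 0.00905) and Rrm2b, the reductase subunit used outside S phase, by 0.73 ± 0.19 (adjusted p = 0.0144), while spike-in scaling gave 1.90 and 2.16. The Recql4 call was lost with normexp (-0.30, adjusted p = 0.0566), the mean of probes (adjusted p = 0.0591) and slide 2 by itself (adjusted p = 0.0649), and that of Rrm2b with median centring (-0.38, adjusted p = 0.105) and normexp (-0.19, adjusted p = 0.138). Pole3, a histone-fold subunit of polymerase epsilon, stood at -0.68 (adjusted p = 0.0347), and its call was lost without KCS replicate 1, KCS replicate 2, KC replicate 1 or KC replicate 2 (adjusted p = 0.0713 to 0.109). The Rrm2b call was lost without KCS replicate 2 (adjusted p = 0.0589). The lower calls of this list were 2 without KCS replicate 1 and 1 without KCS replicate 2.

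Among 22 tested regulators of the G1/S transition, 13 were called higher (59.1%) and 2 lower (9.09%, median 0.75), with Ccne2 not tested. The shares over all rows were 25.9% and 34.4%, and over rows with a symbol 32.4% and 29.1%. The higher call of E2f3 came from a probe well above background on 0 of 3 KC arrays and adds no support to the count. E2f7 was called higher (1.51), but its other probe was called lower (-1.66, adjusted p = 6.06e-04), so no direction is given for E2f7. Dnmt1, the maintenance DNA methyltransferase, rose by 1.47 ± 0.20 (adjusted p = 0.00113). E2f8, an atypical repressive E2F, rose by 2.73 ± 0.43 (adjusted p = 0.00206), with 2 of 3 KC arrays well above background. Rbl1, a pocket protein, rose by 2.50 ± 0.27 (adjusted p = 4.85e-04), with 2 of 3 KC arrays well above background. Its other probes were so on 0 of 3 KC arrays, and their bounds gave no fold above 1. Cdc25a, a phosphatase that activates the kinases of S phase, was called lower (-2.52 ± 0.21, adjusted p = 2.06e-04; 0.37 with spike-in scaling), and so was Tfdp2, a dimerisation partner of E2F factors (-2.26 ± 0.23, adjusted p = 4.01e-04; 0.63). Leaving out KCS replicate 2 left 7 genes of this list called higher, and leaving out KC replicate 1 left 8.

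Of 16 mitotic proliferation markers, 11 were called higher (68.8%) and none lower (median 1.05, with 0.54 on the first slide and 1.46 on the second). The shares over all rows were 25.9% and 34.4%, and over rows with a symbol 32.4% and 29.1%. The higher calls of Bub1, Bub1b and Kif11 came from probes well above background on 0 of 3 KC arrays and add no support to the count. Cdk1, the kinase of mitotic entry, rose by 1.84 ± 0.25 (adjusted p = 0.00119), Cenpa, the centromeric histone, by 1.71 ± 0.23 (adjusted p = 0.00114), and Bub1b, a spindle checkpoint kinase, was at least 4.12-fold higher, with 0 of 3 KC arrays well above background. Mki67, the gene of the Ki-67 antigen, read 2.18, 2.35 and 2.74 in KCS, against 2.56, 1.68 and 2.08 in KC. The groups overlapped and it was not called (0.32 ± 0.28, adjusted p = 0.366), with -0.38 on the first slide and 0.67 on the second.

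Of the 27 replication genes called higher, 20 kept call and direction in all 18 alternative settings. Orc1 and Pole2 kept both wherever they were tested, but had no row where all 6 arrays had to be well above background. Pold2 and Gins3, each measured by 1 probe, kept the lower call in every alternative setting but spike-in scaling.

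**Figure D5:**
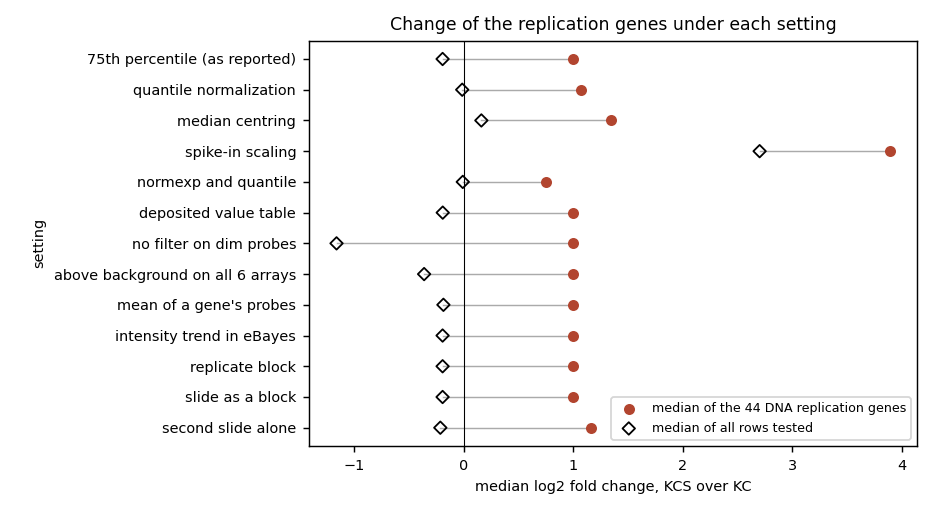
Median log2 fold change of KCS over KC (x axis) of the 44 DNA replication genes (filled circles) and of all rows tested (open diamonds) under each setting (y axis). The median of the 44 genes lay above that of all rows in every setting drawn, and spike-in scaling moved both, to 3.89 and 2.70.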

How the data were processed

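RNA of 6 samples (3 KCS, 3 KC) was measured on 1-colour Agilent arrays. Per the labels' protocols, total RNA was amplified by whole-transcriptome amplification and carried the dye Cy3. Per the submitters' processing notes, Agilent Feature Extraction 12.0.3.1 was used, and per the file headers the processed signal is a background-corrected intensity in scanner units. The deposited value table holds log2 values that, over 36110 non-control probes, matched the scaled scanner values centred on each probe's median (r of at least 0.999999, across probes). Its column medians were -0.05, -0.03 and -0.04 for KCS replicates 1 to 3 and -0.01, 0.05 and 0.10 for KC replicates 1 to 3. The files' headers name another genome build than RefSeq's GRCm38.p6, so no array coordinates are given.

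The log2 of the processed signal minus each array's 75th percentile over non-control probes was used. Of 62976 spots, 3671 controls and those marked as outliers (88 to 140 per array) were left out, spots of a probe were averaged, and saturation affected no spot. A probe was tested where 3 or more arrays put it well above background. Accessions without version named 33767 probes through RefSeq, 22838 stayed unnamed, and the probe with the highest mean stood for a gene. limma 3.58.1 (lmFit and eBayes, two-sided, no covariates) in R 4.3.3 gave p-values, Benjamini-Hochberg adjusted over 27102 rows. Where every array of a group lacked a signal well above background, a fold is a bound, the bright group's mean against the higher, per array, of the lowest signal well above background and the probe's own.

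The members and lists were chosen with earlier results of these data known. By rule, full values are given for the highest and lowest member of each role, for Mcm2, Pcna, Gmnn, Cdt1, Rrm2, Tk1, Setdb1 and Mki67, and, in the other lists, for up to 3 called genes per direction with the smallest p. Alternatives were quantile normalization, median centring, scaling to 350 spike-in spots, normexp with an offset of 50 on median signals (mean signals were not used here) with quantile normalization, the deposited value table, other filters, the mean of a gene's probes, an intensity trend, the replicate number or slide as a block, the second slide alone and each array left out. The fit was tested on simulated data, with 50 rows changed at each size. It recovered 0% of changes of 0.5 log2 units, 2% of 1, 54% of 2 and 78% of 4, with 5 false calls. Far fewer rows changed there than were called in these data, so the shares do not carry over to them. Python 3.11.15, pandas 2.3.3 and matplotlib 3.10.9 made tables and figures. Arrays give no counting depth, and their number limits the precision. One allele of the mice is not named here.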

Additional observations from a re-analysis of the deposited data

How the results depend on the processing

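Quantile normalization (26 genes called higher, 3 lower), the deposited value table (27 and 4), no filter on dim probes (28 and 4), the requirement of all 6 arrays (26 and 3 of 40), an intensity trend (28 and 5), the slide as a block (27 and 4) and the second slide alone (26 and 3) left the counts of the 44 genes within 1.5 times those reported. Single arrays left out gave 24 to 27 higher and 3 to 4 lower, medians of 0.89 to 1.11 and 13400 to 15283 of all rows called. The median was 1.35 with median centring, 0.75 with normexp and 3.89 with spike-in scaling, which called 44 genes higher and 0 lower. Spike-in scaling called 87.2% of all rows higher and 2.85% lower. The mean of a gene's probes left 2 called lower. Without the filter 31885 rows were called. Calls over all rows were 42.9% higher, against 96.8% after spike-in scaling, 56.5% after median centring and 22.3% unfiltered.

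The other replication genes gave 38 higher and 0 lower with spike-in scaling, 1 lower with median centring, 2 with normexp, 1 on the second slide alone, and 14 to 16 higher and 1 to 5 lower with single arrays left out. The G1/S regulators gave 20 higher and 0 lower with spike-in scaling, 8 higher on the second slide alone and 7 to 13 higher with single arrays left out. Both spike-in counts stand beside 87.2% of all rows called higher in that setting. The mitotic markers gave 7 higher over rows above background on all 6 arrays, where fewer were tested, and 8 to 13 with single arrays left out.

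With spike-in scaling Cdc25a turned to 0.37, Cdc45 to 2.13, Cdc6 to 2.26, Gins3 to 1.74, Lig1 to 2.35, Pold2 to 1.06, Pole3 to 2.22, Recql4 to 1.90, Rfc4 to 2.89, Rrm2 to 2.61, Rrm2b to 2.16, Tfdp2 to 0.63 and Wdhd1 to 1.84. Averaging a gene's probes, Cdc45 turned to 0.21, Cdc6 to 0.69, Lig1 to 0.66, Orc2 to -0.28, Rfc4 to 0.16 and Wdhd1 to 0.57. Rfc4 and Rrm2 turned to 0.34 and 0.066 with median centring and to 0.072 and 0.035 on the second slide alone, where Pola2 turned to -0.011. With single arrays left out Orc2 ranged over -0.073 to 0.21, Prim1 over -0.16 to 0.33 and Rfc4 over -0.18 to 0.083. The cause of these changes was not tested.

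Same-numbered samples had deviations correlated at 0.33, 0.04 and 0.14 across rows. With 3 samples in each group, and both replicate 1 samples on the first slide, these values cannot show whether the numbers pair samples. With the replicate block 27 genes were called higher and 4 lower, with a median of 0.99 and 16452 of all rows called, and Pole3 lost its call (adjusted p = 0.0643). Signals near background limit Orc1, Cdc45, Pola2 and Pole2.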
